A study of Mus musculus with 6 samples.

Results

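The 7 genes examined here encode metabotropic glutamate receptors: Grm2, Grm3, Grm4, Grm5, Grm6, Grm7 and Grm8. They were picked by gene symbol from a table of 53801 genes, in which each of the 7 had 1 entry. Whole brains of 6 C57BL/6 mouse embryos (E16.5) had, by their labels, been profiled by RNA-seq of polyadenylated transcripts. The markers of 1 library, given below, go against that label. The 3 Bahd1-KO embryos carried the genotype Bahd1-/-, a knock-out of the gene for BAHD1, a scaffold protein of chromatin-repressive complexes, and the 3 Bahd1-WT embryos were Bahd1+/+. The labels name no other allele or agent, and the comparison asked whether loss of BAHD1 altered gene expression in the brain before birth.

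Metabotropic glutamate receptors sense the transmitter glutamate and act through G proteins rather than by opening a channel. Grm5 belongs to group I, whose receptors activate phospholipase C through Gq proteins and sit mainly on the receiving side of the synapse. Group II (Grm2 and Grm3) and group III (Grm4, Grm6, Grm7 and Grm8) act through Gi/o proteins, lower cyclic AMP and mostly damp transmitter release from nerve terminals. Grm3 is also found in astrocytes, Grm5 is abundant in the immature brain, and Grm6 is known for 1 place, the dendrites of ON bipolar cells in the retina.

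The libraries held 61724000 to 91782802 counts, and the genotype check was clear. Bahd1 was at 20.6, 35.2 and 34.4 CPM in the Bahd1-WT embryos and at 0.0305, 0.118 and 0.111 CPM in the Bahd1-KO embryos, where CPM is counts per 1000000 counts after scaling by trimmed mean of M-values (TMM) factors (log2 fold change -8.40, SE 0.606, edgeR adjusted p = 0.0462). One library stood furthest apart. In Bahd1-KO replicate 3 protein-coding genes took 53.5% of the counts, against 97.8 to 98.4% in the other 5, and Gm42418, which overlaps ribosomal RNA sequence, together with the mitochondrial ribosomal RNAs took most of the rest (22.575% and 22.087%). The summed level of 8 neuron markers was 2345 CPM in that embryo against 7609 to 9713 in the others. Of the 8 genes 5 were lowest there, but Snap25 was highest, at 909.8 CPM against 153.5 to 285.4. Syt1 and Rbfox3 lay within the range of the others. Dcx, a defining marker of young neurons, was at 32.96 CPM there and at 1865 to 3713 CPM elsewhere. The 7 telencephalon markers in the table summed to 97.9 CPM against 1061 to 1531, with all 7 lowest there. The opposite held for 8 myelin markers (1329 against 81.1 to 163 CPM, all 8 highest), for 6 lung markers (1468 against 0.672 to 12.5 CPM) and for 8 hindbrain and spinal cord markers (65.9 against 0.0916 to 11.0 CPM). Astrocyte, microglia, endothelium, muscle, mature neuron and meninges lists also summed highest there, and thalamus and retina lists lowest. In the astrocyte, mature neuron and meninges lists 1 gene each was lowest there, and 1 thalamus gene and 2 retina genes were highest. The progenitor sum lay within the range of the others, but its genes went both ways: 5 of 8 were lowest in that embryo, among them Fabp7 at 14.68 CPM against 422.8 to 575.3 and Sox2 at 13.99 CPM against 60.66 to 99.79, and 3 were highest, among them Mki67 at 662.8 CPM against 151.4 to 268.2. The choroid plexus list was lowest as a sum, most of which was Ttr, with 3 of 6 genes lowest and 3 highest, and the blood sum lay within the range of the others. These markers go against the label of an E16.5 whole brain for the library labelled Bahd1-KO replicate 3, so its identity is in doubt, and with it what each Bahd1-KO mean and each mean over 6 embryos stands for. Most midbrain and cerebellum markers were low in 2 embryos, but Zic1 was not low in Bahd1-KO replicate 1 (224.8 CPM against 189.1 to 230.7 in Bahd1-WT). Their sum, most of which was Zic1, was lowest in Bahd1-KO replicate 3, but En2, Pax2 and Atoh1 were lowest in Bahd1-KO replicate 1 (0.6716, 0.1526 and 0 CPM), where En1, Pax5 and Barhl1 were also below all Bahd1-WT embryos. Bahd1-KO replicate 1 had the lowest hindbrain sum too, with 4 of 8 genes at 0 counts. The myelin sum of 163 CPM was that of Bahd1-WT replicate 1. Outside Bahd1-KO replicate 3, Mobp was at 16.43 CPM in it against 0.1928 to 0.7021, Gabra6 at 2.026 against 0.0355 to 0.2137 and Cbln3 at 5.181 against 0.7426 to 1.206. Its Cnp, Cldn11 and mature neuron sum were within the range of the others. The lung sum of 12.5 CPM was that of Bahd1-KO replicate 2, with Scgb1a1 at 6.051 CPM. Because the identity of Bahd1-KO replicate 3 is in doubt, fold changes are given with and without it. Leaving it out does not remove the marker differences among the other 5 embryos. In whole brain, fewer cells of a type and less RNA per cell cannot be told apart.

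**Figure D1:**
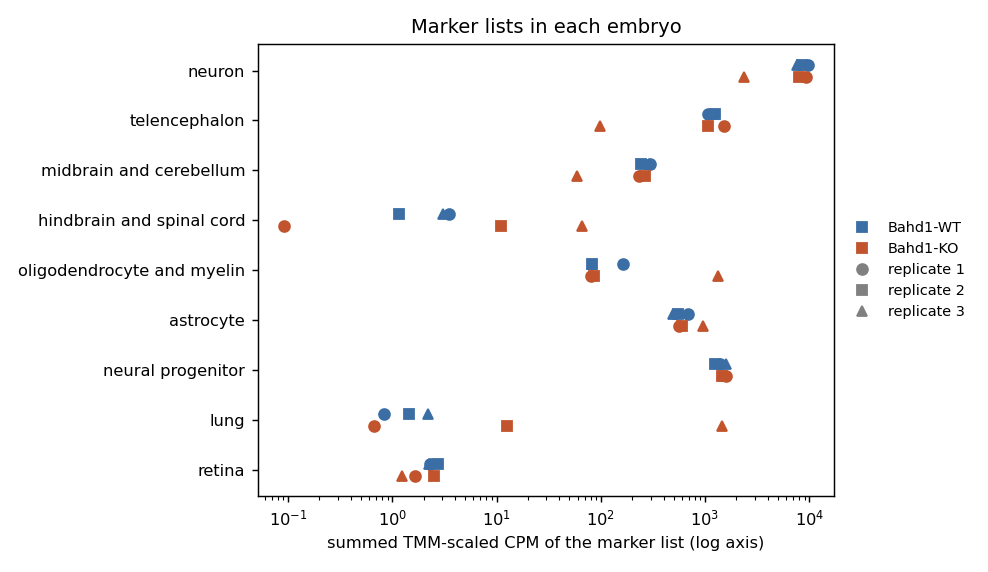
Summed TMM-scaled CPM of marker lists (log axis) in the 6 embryos, 1 point per embryo, with colour for the genotype and shape for the replicate. Bahd1-KO replicate 3 is separated from the other 5 embryos in the neuron, telencephalon, myelin and lung lists. The progenitor sums of all 6 embryos lie between 1248 and 1578 CPM, although 5 of its 8 genes are lowest and 3 highest in that embryo.

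The genes are spread over 6 chromosomes (GRCm38 coordinates, GENCODE M21). Grm2 lies on chr9:106643095-106656082 on the minus strand and spans 13.0 kb, and Grm6 on chr11:50850685-50866208 on the plus strand spans 15.5 kb. The others are long genes: Grm4 on chr17:27422387-27521403 (minus, 99.0 kb), Grm3 on chr5:9485541-9725170 (minus, 239.6 kb), Grm5 on chr7:87584168-88134907 (plus, 550.7 kb), Grm8 on chr6:27275119-28135178 (minus, 860.1 kb) and Grm7 on chr6:110645581-111567230 (plus, 921.6 kb). Antisense genes overlap the exons of Grm2, Grm6 and Grm7. Those at Grm2 and Grm6 had 0 counts and the one at Grm7, Gm20387, had 542 counts over the 6 embryos, and counting was by strand.

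Members of the same receptor group differ in base composition, and their levels are set beside it further on. GC content of the coding sequence was 60.7% for Grm2 but 48.4% for Grm3 in group II, and in group III it was 60.3% for Grm4 and 60.2% for Grm6 but 49.4% for Grm7 and 47.4% for Grm8. Grm5 had 51.6% in its coding sequence and 35.6% in the untranslated part of the same transcript. At the third base of codons the share ran from 52.1% in Grm8 to 81.7% in Grm4. The first 120 coding bases, each within 1 exon, are printed 5′ to 3′ on the gene's strand from GENCODE M21 for one GC-rich and one GC-poor gene of each group, with every G and C in capitals. They lie at chr9:106654169-106654288 (Grm2), chr5:9589924-9590043 (Grm3), chr17:27503046-27503165 (Grm4) and chr6:28126006-28126125 (Grm8).
Grm2: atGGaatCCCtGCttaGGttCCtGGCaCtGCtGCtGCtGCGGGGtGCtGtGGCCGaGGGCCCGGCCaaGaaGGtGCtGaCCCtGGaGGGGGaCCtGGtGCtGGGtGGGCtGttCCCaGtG
Grm3: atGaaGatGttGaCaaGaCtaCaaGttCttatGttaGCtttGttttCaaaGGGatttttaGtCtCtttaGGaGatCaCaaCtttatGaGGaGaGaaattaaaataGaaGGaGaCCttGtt
Grm4: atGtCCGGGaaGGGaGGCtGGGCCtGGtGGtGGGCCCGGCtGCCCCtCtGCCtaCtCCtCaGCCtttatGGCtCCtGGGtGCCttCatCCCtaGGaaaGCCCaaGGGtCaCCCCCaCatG
Grm8: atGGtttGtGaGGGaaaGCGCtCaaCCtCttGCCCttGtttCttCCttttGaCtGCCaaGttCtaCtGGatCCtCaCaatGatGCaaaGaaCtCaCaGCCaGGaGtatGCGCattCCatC
G and C made up 66.7% of these bases in Grm2 and 65.0% in Grm4, against 32.5% in Grm3 and 47.5% in Grm8. The first 120 bases are not a measure of the whole: in Grm7 they held 68.3% G and C.

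All members but Grm6 were expressed in every embryo. Levels of different genes were compared as CPM per kb of annotated exons. Over the 6 embryos the mean level was 19.6 ± 8.12 CPM per kb for Grm5, 11.9 ± 3.16 for Grm3, 5.68 ± 1.52 for Grm7, 2.14 ± 1.25 for Grm2, 1.96 ± 0.747 for Grm4 and 1.51 ± 0.434 for Grm8 (SD, n = 6), with Grm6 at 0.0054 ± 0.00465. Without Bahd1-KO replicate 3 the order was unchanged, with means of 21.9, 12.3, 6.08, 2.47, 2.05 and 1.65 CPM per kb for the first 6. Grm3 exceeded Grm7 2.1-fold and Grm7 exceeded Grm2 3.12-fold, each in 6 of 6 embryos (exact sign-flip permutation test on log2 ratios within embryos, two-sided, p = 0.0312, adjusted p = 0.0625 over the 6 pairs of neighbours). This p is the smallest that 6 embryos allow, and with 6 pairs none passed 0.05 after adjustment. Grm5 exceeded Grm3 1.56-fold in 5 of 6 embryos (exact adjusted p = 0.0938). Grm2, Grm4 and Grm8 could not be ordered (exact adjusted p = 1.0 for Grm2 against Grm4 and 0.375 for Grm4 against Grm8). When the longest transcript replaced the exon length, Grm5, Grm3 and Grm7 kept their places, Grm8 moved above Grm4 and Grm2, and 4 of the 6 neighbouring pairs reached an exact adjusted p of 0.0469. Each of those 4 was again at the smallest exact p, 0.0312, and the pairs were formed by ranking the same levels.

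**Figure D2:**
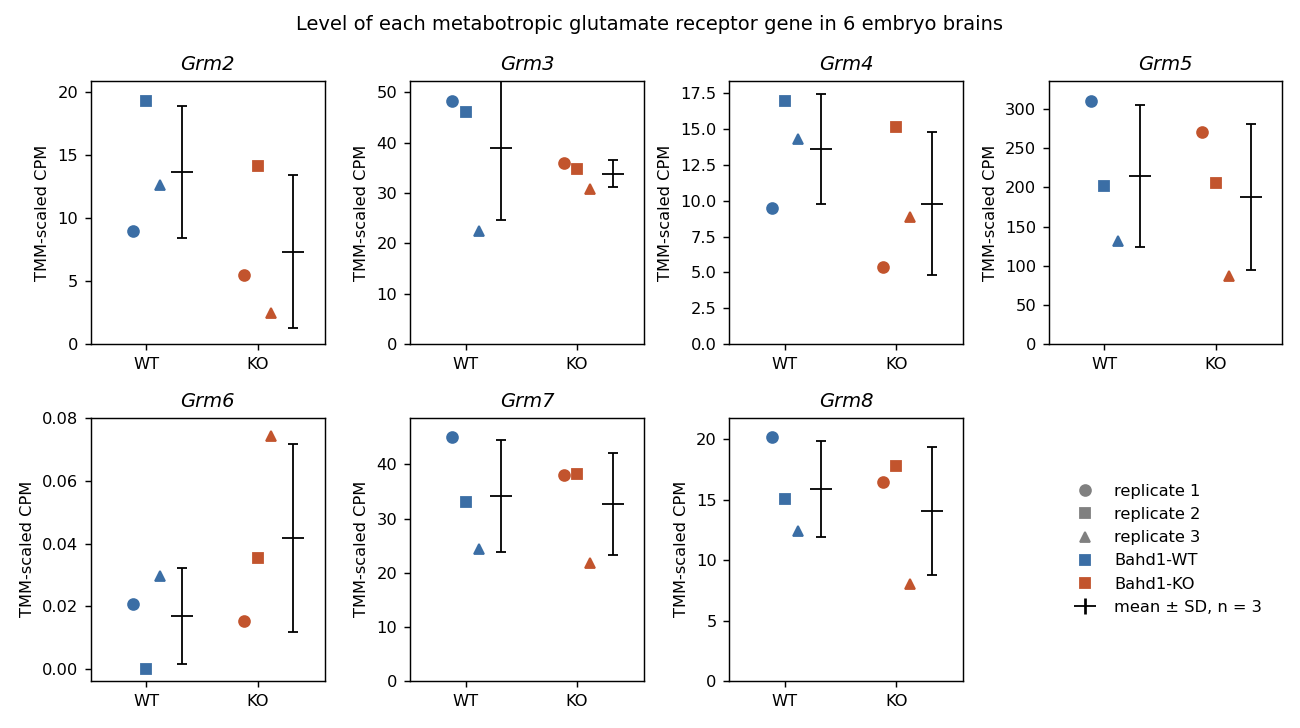
TMM-scaled CPM of each gene in the 3 Bahd1-WT and 3 Bahd1-KO embryos, with the mean and SD of each genotype beside the points; each panel has its own vertical axis. The genotypes overlap for all 7 genes, and Bahd1-KO replicate 3 is the lowest embryo for Grm2, Grm5, Grm7 and Grm8.

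Grm5, the group I gene analysed, is the receptor that feeds the phospholipase C pathway. Its level was 311, 201 and 131 CPM in Bahd1-WT replicates 1, 2 and 3 and 271, 206 and 87.5 CPM in Bahd1-KO replicates 1, 2 and 3. Replicate 1 was the highest embryo of each genotype and replicate 3 the lowest, and the genotypes overlapped. The log2 fold change of Bahd1-KO over Bahd1-WT was -0.19 (SE 0.481, 95% interval -1.32 to 0.94, edgeR adjusted p = 0.895). Without Bahd1-KO replicate 3 it was 0.13, on the other side of 0 (95% interval -0.66 to 0.93, edgeR adjusted p = 0.981).

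In group II, Grm3 and Grm2 behaved differently from each other. Grm3, the receptor shared by neurons and astrocytes, was at 48.3, 46.1 and 22.5 CPM in the Bahd1-WT embryos and at 36.0, 34.7 and 30.8 CPM in the Bahd1-KO embryos. The 3 Bahd1-KO values lay close together (SD 2.72) and inside the wider range of the Bahd1-WT values (SD 14.3). The log2 fold change was -0.20 (SE 0.332, 95% interval -0.98 to 0.58, edgeR adjusted p = 0.838), and -0.16 without Bahd1-KO replicate 3. Grm2, a presynaptic autoreceptor, was at 8.98, 19.3 and 12.6 CPM in the Bahd1-WT embryos and at 5.45, 14.1 and 2.45 CPM in the Bahd1-KO embryos. It varied most between embryos of the 6 expressed genes, 7.89-fold from the lowest to the highest, and the lowest value, from 132 counts, came from Bahd1-KO replicate 3. Its log2 fold change of -0.89 was the furthest from 0 among those genes (SE 0.642, 95% interval -2.40 to 0.62, edgeR adjusted p = 0.696). Leaving out Bahd1-KO replicate 3 brought it to -0.48 (95% interval -1.58 to 0.62, edgeR adjusted p = 0.981).

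Grm4, Grm7 and Grm8 of group III encode receptors of nerve terminals. Grm4, best known from the terminals of cerebellar granule cells, was at 9.46, 17.0 and 14.3 CPM in the Bahd1-WT embryos and at 5.39, 15.2 and 8.84 CPM in the Bahd1-KO embryos. Here replicate 1 was the lowest of each genotype, and Bahd1-KO replicate 1, the lowest of all, also had the lowest En2, Pax2 and Atoh1. Bahd1-KO replicate 3 was below all Bahd1-WT embryos for these 3 genes too. Of the same list En1, Pax5, Barhl1 and Lhx5 were lowest in Bahd1-KO replicate 3. Zic1, at 224.8 CPM in Bahd1-KO replicate 1, lay within the Bahd1-WT range of 189.1 to 230.7 CPM. Bahd1-WT replicate 1 had the highest Atoh1 of its genotype (1.253 CPM). The part of granule cells in the level of Grm4 was not tested. The log2 fold change was -0.47 (SE 0.445, 95% interval -1.52 to 0.58, edgeR adjusted p = 0.726), -0.40 without Bahd1-KO replicate 3 and -0.18 without Bahd1-KO replicate 1. Grm7, the low-affinity receptor that responds only to high glutamate, was at 45.0, 33.0 and 24.4 CPM in the Bahd1-WT embryos and at 38.1, 38.3 and 21.7 CPM in the Bahd1-KO embryos. Its log2 fold change was -0.06 (SE 0.343, 95% interval -0.87 to 0.74, edgeR adjusted p = 0.954), and 0.15 without Bahd1-KO replicate 3. Grm8 was at 20.2, 15.0 and 12.4 CPM in the Bahd1-WT embryos and at 16.45, 17.8 and 8.01 CPM in the Bahd1-KO embryos. Bahd1-KO replicates 1 and 2 lay within the Bahd1-WT range. The log2 fold change of Grm8 was -0.17 (SE 0.385, 95% interval -1.08 to 0.73, edgeR adjusted p = 0.885), and 0.10 without Bahd1-KO replicate 3.

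Grm6 was at the detection floor. It had 2, 0 and 3 counts in the Bahd1-WT embryos and 1, 3 and 4 counts in the Bahd1-KO embryos. A count of 0 allows up to 3 counts, which corresponds to 0.0297 to 0.0556 CPM in these libraries, so no fold change is given. With 13 counts in all it passed the minimum of 10 for testing only barely, and without Bahd1-KO replicate 3 it did not. The 8 partners of mGluR6 in ON bipolar cells varied in level. Trpm1, the channel it closes, lay at 0.0185 to 0.198 CPM, Lrit3 at 0.0185 to 0.0474 CPM, Gnb3 at 0.148 to 0.584 CPM, Nyx (nyctalopin) at 0.426 to 1.05 CPM and Gpr179 at 1.13 to 2.06 CPM. Rgs11 was higher, at 2.59 to 5.19 CPM in every embryo, and Pcp2 and Gng13 reached 3.30 and 5.38 CPM in Bahd1-KO replicate 3. Retina markers summed to 1.24 to 2.72 CPM over 9 genes.

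No member was called between the genotypes. At an adjusted p of 0.05, 0 of the 7 members were called by edgeR with all embryos and 0 of the 6 tested without Bahd1-KO replicate 3, and 0 also had an unadjusted p under 0.05. DESeq2 called 0 members in either set, where it called 0.0334% of all genes with all embryos and 0.0471% without Bahd1-KO replicate 3. The background was as low: 0.00404% of 24739 genes tested were called with all embryos (1 gene, Bahd1 itself), 0.0171% of 23334 without Bahd1-KO replicate 3, and 4.67% and 1.48% had an unadjusted p under 0.05. The log2 fold change was below 0 for the 6 members other than Grm6 with all embryos (median -0.20), where 46.2% of all genes were below 0 (median 0.06). Without Bahd1-KO replicate 3 it was below 0 for 3 of 6 (median -0.03), where 50.8% of all genes were below 0 (median -0.01). The genotypes did not overlap for 0 of the 7 members, against 6.71% of all genes tested, and for 0 without Bahd1-KO replicate 3, against 10.7%. The 95% intervals were wide. With all embryos their lower bounds ran from -0.87 for Grm7 to -2.40 for Grm2 on the log2 scale. Their upper bounds ran from 0.58 for Grm3 and Grm4 to 0.94 for Grm5. Changes up to these bounds were therefore not excluded, and the smallest change that could have been called was not computed.

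**Figure D3:**
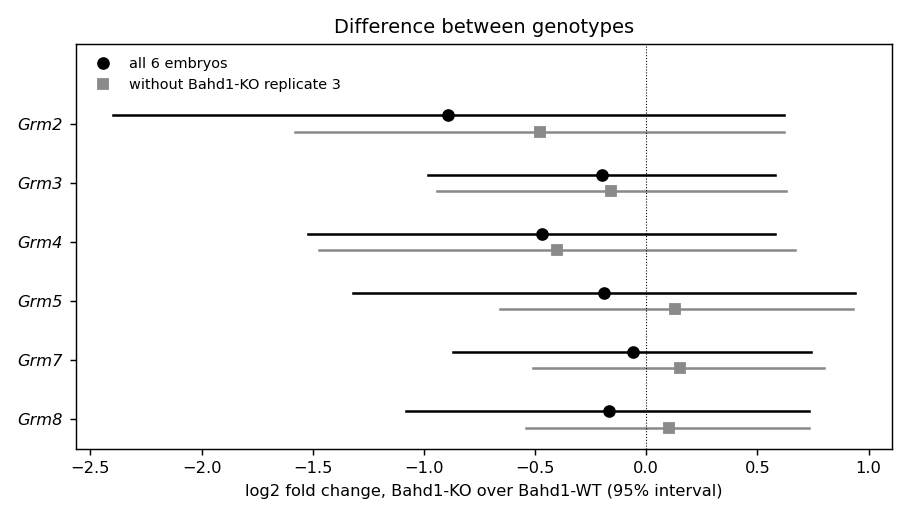
Log2 fold change of Bahd1-KO over Bahd1-WT with its 95% interval from edgeR for the 6 expressed genes, with all 6 embryos (black) and without Bahd1-KO replicate 3 (grey). All intervals contain 0, and the values of Grm5, Grm7 and Grm8 move from below to above 0 when that embryo is left out.

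The mean make-up of the receptor transcripts was close in the genotypes with all embryos, but the Bahd1-KO embryos held both extremes for groups I and II. The 7 levels per kb summed to 59.3, 48.7 and 30.6 CPM per kb in the Bahd1-WT embryos and to 48.4, 45.2 and 25.1 in the Bahd1-KO embryos. Grm5 alone contributed 44.5% ± 5.79 of this sum in Bahd1-WT and 44.3% ± 10.3 in Bahd1-KO embryos (SD, n = 3), group II 33.9% ± 4.83 and 33.5% ± 7.92, and group III 21.7% ± 3.40 and 22.2% ± 3.00. Without Bahd1-KO replicate 3 the Bahd1-KO means were 49.5%, 29.1% and 21.4% for groups I, II and III (n = 2). In Bahd1-KO replicate 3 the share of group I was the lowest of the 6 embryos (34.0%) and that of group II the highest (42.2%), and within group II Grm3 held 40.2% and Grm2 1.99% of the sum. Bahd1-KO replicate 1 was the other extreme, with 54.6% for group I and 26.7% for group II.

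**Figure D4:**
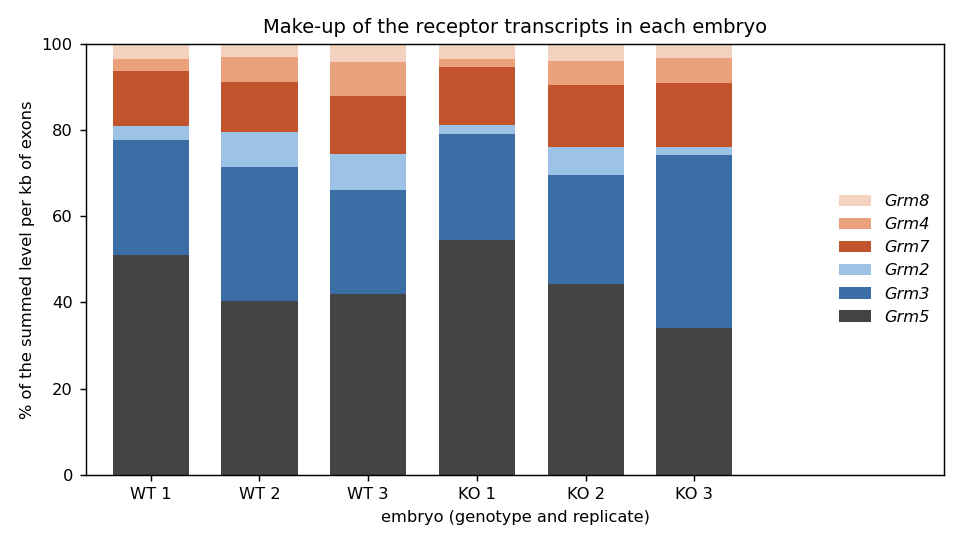
Share of each gene in the summed level per kb of exons of the 7 genes, 1 bar per embryo; Grm6 is too low to be seen. Grm5 takes from 34.0% in Bahd1-KO replicate 3 to 54.6% in Bahd1-KO replicate 1, and replicates 1 of both genotypes have the thinnest bands of Grm4.

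Ratios of counts within an embryo, which need no scaling, were steadier for some pairs than for others. Grm2 to Grm4 had a ratio of 0.881 to 1.14 in 5 embryos and 0.277 in Bahd1-KO replicate 3. Grm7 to Grm8 had a ratio of 1.97 to 2.71 in all 6, the steadiest of the 5 pairs computed. Grm5 to Grm3, both GC-poorer, ran from 2.85 to 7.52. Outside Bahd1-KO replicate 3, the 2 ratios of a GC-rich to a GC-poor member varied more than these. With that embryo, Grm2 to Grm4 spread about as widely as Grm4 to Grm7. Grm2 to Grm3 was 0.186, 0.419 and 0.560 in the Bahd1-WT embryos and 0.151, 0.407 and 0.0795 in the Bahd1-KO embryos. Grm4 to Grm7 was 0.210, 0.514 and 0.586 in the Bahd1-WT embryos and 0.141, 0.396 and 0.407 in the Bahd1-KO embryos. Both ratios were low in replicate 1 of each genotype.

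The members were also set against the GC content of their longest transcripts, beside all genes with a mean of at least 5 CPM. Between Bahd1-WT replicate 1 and the mean of replicates 2 and 3, the log2 level differed by -0.76 for Grm2 (56.9% GC) and -0.69 for Grm4 (61.7% GC), but by 0.58 for Grm3 (47.6%), 0.66 for Grm7 (47.2%), 0.93 for Grm5 (42.5%) and 0.55 for Grm8 (41.9%). The median over 1414 genes of at least 57% GC was -0.81, over 2710 genes of 52 to 57% it was -0.43, and over 1602 genes under 42% it was 0.49. Between Bahd1-KO replicates 1 and 2, the difference was -1.30 for Grm2 and -1.41 for Grm4, and it lay between -0.11 and 0.39 for the other 4. The medians of the same 3 sets of genes were -1.03, -0.45 and 0.43. Grm2, near the upper edge of its set, lay below the set's median in both genotypes, but in Bahd1-WT its value was within the middle 50% of genes in a narrow bin centred on 56.25% GC (-0.786 to -0.389). In the Bahd1-KO pair Grm2 lay below the middle 50% of that bin (-0.94 to -0.447). Grm4 and Grm8 lay below the medians of their sets in the Bahd1-KO pair, and Grm3, Grm5 and Grm7 in the Bahd1-WT embryos lay above theirs (0.26 for genes of 42 to 47% and -0.04 for those of 47 to 52%). In narrow bins of the Bahd1-KO pair, Grm4 was within the middle 50% at 61.25% GC (-1.533 to -0.916). Grm8 was below it at 41.25% GC (0.245 to 0.514). Once each library was corrected for GC content, a step added after the values had been seen, the log2 fold change of Bahd1-KO over Bahd1-WT was -0.52 for Grm2 and 0.32 for Grm4, which had been -0.89 and -0.47. It went further below 0 for Grm5 (-0.34, from -0.19) and Grm8 (-0.32, from -0.17), and was -0.18 for Grm3 and -0.06 for Grm7. With the correction and without Bahd1-KO replicate 3, Grm2 was at -0.19 (95% interval -0.75 to 0.37), Grm4 at -0.02 (95% interval -0.40 to 0.35), Grm3 at -0.18, Grm5 at -0.01, Grm7 at 0.12 and Grm8 at -0.05. The part of GC content in the level of any member was not tested.

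**Figure D5:**
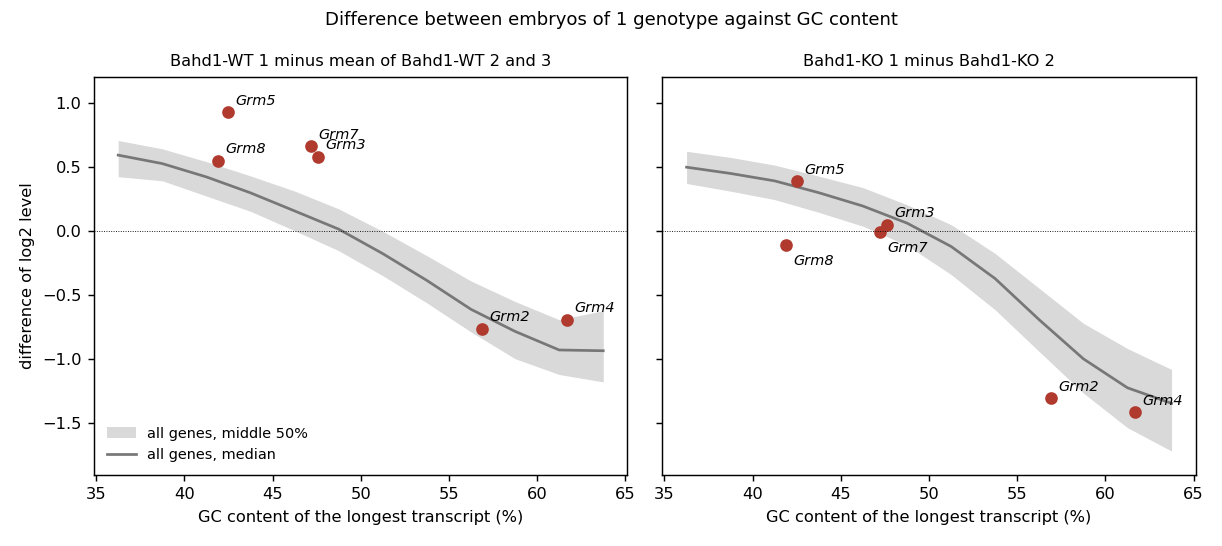
Difference of log2 level between replicate 1 and the other embryos of the same genotype (left, Bahd1-WT; right, Bahd1-KO without replicate 3) against GC content of the longest transcript, with the median and the middle 50% of all genes in bins of at least 20 genes. Grm2 and Grm4 lie at -0.76 and -0.69 on the left and at -1.30 and -1.41 on the right, while the 4 GC-poorer genes lie above 0 on the left and between -0.11 and 0.39 on the right.

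The genes whose pattern over the 6 embryos came closest to each member were sought among 11905 genes with a mean of at least 5 CPM, by the root mean square (RMS) difference of centred log2 levels, as a description. Grm7 and Grm8 lay 0.13 apart with all embryos and 0.08 without Bahd1-KO replicate 3, and no other pair of members lay closer in either set. Many other genes were closer to each: Grm8 ranked 37 among the genes nearest Grm7 in both sets. Grm7 ranked 55 among those nearest Grm8, and 62 without Bahd1-KO replicate 3. Grm2 and Grm4 were 0.62 apart with all embryos but 0.12 without Bahd1-KO replicate 3. With all embryos the closest genes were Caskin1, Lrrn2 and Lingo1 for Grm2 (RMS difference 0.03 to 0.09), Stum, Ptchd1 and Plcxd3 for Grm3 (0.08 to 0.10), Tmem184b, Mfsd12 and Rasip1 for Grm4 (0.09 each), Plppr5, Lhfpl3 and Nexmif for Grm5 (0.07 to 0.10), Ccdc85a, Sfmbt2 and Slc41a2 for Grm7 (0.07 to 0.08) and Tmeff2, Lrrc3b and Prkcq for Grm8 (0.04 to 0.06). Without Bahd1-KO replicate 3, Caskin1 for Grm2, Stum and Ptchd1 for Grm3 and Slc41a2 for Grm7 were again among the closest 3. The newcomers were Gm996 and Hcn3 for Grm2, Kcnj6 for Grm3, Rell2, Bicdl1 and Syt3 for Grm4, Gm10419, Camk4 and A830018L16Rik for Grm5, Gpr139 and Gng4 for Grm7, and Ccdc85a, Pappa and Ankrd34b for Grm8.

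The wider pathway was described with 5 lists, and 0 genes of any list were called by edgeR with or without Bahd1-KO replicate 3. Of 21 genes for G proteins and second messengers, 13 had a log2 fold change above 0 and 8 below (median 0.19), and without Bahd1-KO replicate 3 the split was 8 and 13 (median -0.10). Gnaq, the G protein of group I receptors, was at 550, 474 and 378 CPM in the Bahd1-WT embryos and at 550, 437 and 193 CPM in the Bahd1-KO embryos (log2 fold change -0.25, SE 0.405, and 0.06 without Bahd1-KO replicate 3). Gnao1, the G protein of groups II and III that is most abundant in brain, was at 801, 864 and 702 CPM against 646, 712 and 208 CPM (-0.60, SE 0.455, and -0.23 without that embryo). Bahd1-KO replicate 3 had the lowest level of both. The related Gna11 had the lowest log2 fold change of the list (-0.69, SE 0.386, and -0.44 without that embryo). Itpr1, the receptor that releases calcium in response to inositol trisphosphate, had the highest (1.27, SE 0.745), with 387 CPM in Bahd1-KO replicate 3 against 53.0 to 86.3 CPM in the other 5, and it was at -0.22 without that embryo.

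Scaffolds and binding proteins showed 5 of 18 genes above 0 and 13 below (median -0.45), and 6 above and 12 below without Bahd1-KO replicate 3 (median -0.26), beside medians of 0.06 and -0.01 over all genes. Homer1, which ties Grm5 to the postsynaptic density, was at 108, 75.3 and 76.4 CPM in the Bahd1-WT embryos and at 128, 83.9 and 116 CPM in the Bahd1-KO embryos. The genotypes overlapped, and its log2 fold change was the highest of the list (0.34, SE 0.274, edgeR adjusted p = 0.701, and 0.27 without Bahd1-KO replicate 3). Homer3 had the lowest (-0.73, SE 0.502, and -0.67 without that embryo), with its smallest values in both replicates 1 (8.82 and 7.17 CPM). Elfn1 and Elfn2, adhesion proteins that bind group III receptors across the synapse, had log2 fold changes of -0.49 (SE 0.362) and -0.66 (SE 0.518), and each was lowest in Bahd1-KO replicate 3. Without that embryo they were at -0.31 and -0.30. Pick1, which binds the tail of mGluR7, was at -0.53 (SE 0.438, and -0.23 without that embryo) and is listed under 2 identifiers, of which the more abundant was used. Calm2, which encodes calmodulin, had the highest level of the list per kb and a log2 fold change of -0.04 (SE 0.262, and 0.06 without that embryo).

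Of 12 genes for desensitisation, 6 lay above 0 and 6 below (median -0.00, and -0.03 without Bahd1-KO replicate 3). Among those with a mean of at least 1 CPM, Grk4, a receptor kinase, was the highest (0.50, SE 0.363), Arrb2, which encodes an arrestin, the lowest (-0.85, SE 0.566), and Rgs4, a brake on G protein signals, the most abundant per kb (0.13, SE 0.251). Their values without Bahd1-KO replicate 3 were 0.42, -0.45 and 0.11. For 1 gene of the list, Rgs8, the highest Bahd1-KO value was under the lowest Bahd1-WT value (log2 fold change -0.29, and -0.23 without Bahd1-KO replicate 3), which held for 2.24% of all genes tested. Among the 8 genes of the ON bipolar cascade, 3 lay above 0 and 5 below (median -0.13, and -0.15 without Bahd1-KO replicate 3). Gng13, a G protein gamma subunit, had the highest log2 fold change there (2.17, SE 1.07), with 5.38 CPM in Bahd1-KO replicate 3 against 0.277 to 0.794 CPM elsewhere and a value of 0.04 without that embryo. Rgs11 lay at -0.04 (SE 0.408, and 0.16 without it), the lowest of the genes with a mean of at least 1 CPM.

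The genes that supply and clear glutamate, the ligand, split into 7 above 0 and 6 below (median 0.02), and into 9 and 4 without Bahd1-KO replicate 3 (median 0.03). Slc1a2, the main astrocyte glutamate transporter, was at 340, 242 and 175 CPM in the Bahd1-WT embryos and at 297, 224 and 1614 CPM in the Bahd1-KO embryos. Its log2 fold change, the highest of the list, was 1.50 (SE 0.761, edgeR adjusted p = 0.696) and 0.03 without Bahd1-KO replicate 3. Slc1a3, the transporter of radial glia and immature astrocytes, lay between 235 and 374 CPM in all 6 embryos (0.10, SE 0.259, and 0.13 without Bahd1-KO replicate 3). The vesicular transporter Slc17a6 was at 50.5 CPM in Bahd1-KO replicate 3 against 147 to 235 CPM elsewhere (-0.36, SE 0.495), and its counterpart of the mature forebrain, Slc17a7, at 88.8 CPM there against 18.3 to 31.2 CPM elsewhere (0.84, SE 0.588). Without that embryo Slc17a6 was at 0.02 and Slc17a7 at -0.18. Slc17a8 had the lowest log2 fold change of the list (-0.60, SE 0.481, and -0.28 without that embryo). Glul, the glutamine synthetase of astrocytes, had the highest level per kb and reached 669 CPM in Bahd1-KO replicate 3 against 206 to 258 CPM (0.63, SE 0.467, and -0.12 without it). Of the 5 lists, Bahd1-KO replicate 3 had the highest sum for glutamate supply and the ON bipolar cascade and the lowest for scaffolds and G proteins, and its desensitisation sum of 693 CPM lay within the 635 to 788 CPM of the other embryos. Genes within each list went both ways. The G protein sum, 2380 CPM, was close to the 2394 CPM of Bahd1-WT replicate 3, and 11 of 21 genes were highest in Bahd1-KO replicate 3 and 5 lowest. Glutamate supply had 4 of 13 genes highest there and 7 lowest, and the ON bipolar cascade 3 of 8 highest and 5 lowest. Scaffolds had 2 of 18 genes highest there and 9 lowest, and desensitisation 5 of 12 highest and 4 lowest. The part of any cell type in these levels was not tested.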

How the data were processed

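The deposited table held raw counts of reads per gene, with no normalization and no filter on low values. Per the paper's methods, the authors selected polyadenylated RNA, prepared stranded TruSeq libraries and counted reads over exons of Ensembl genes (GRCm38) with featureCounts in strand-specific mode. The submitters' processing notes name cutadapt 1.11, STAR 2.5.0a and featureCounts 1.4.6-p3. The supplementary methods name TopHat2 too, and which aligner made this table is not stated. Embryos were labelled as biological replicates. Columns were tied to embryos by the labels' descriptions.

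Genes reaching 10 counts over all embryos entered edgeR's quasi-likelihood test (4.0.16, R 4.3.3), with TMM factors and genotype as the term, two-sided, adjusted by Benjamini-Hochberg over all genes tested with 0.05 as threshold. Levels are counts per 1000000 counts of the TMM-scaled library (CPM), and per kb they are divided by the GENCODE M21 exon length. A pseudocount of 0.5 CPM was added before log2 for nearest patterns and GC differences. DESeq2 (1.42.0), voom of limma (3.58.1), other filters and factors, each embryo left out and a GC correction (lowess, span 0.3) were alternatives. The shared replicate numbers of the embryos were not used to pair them. The members and the 5 pathway and 17 marker lists were chosen with earlier results of these data known. Named genes were, per list, those with the highest and lowest log2 fold change (mean of at least 1 CPM) and the highest level per kb, plus 13 fixed genes and the 3 closest patterns per member. Rgs8 was chosen after its value was seen. The depth of 61724000 to 91782802 counts per embryo leaves counting error small beside the spread between embryos, except for Grm6. Protein sequences were not used here.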

Additional observations from a re-analysis of the deposited data

How the results depend on the processing

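No member was called under any of 21 alternatives, with adjusted p from 0.235 to 1.0. Grm2 and Grm3 stayed below 0 in 21 of 21. Values on the other side of 0 were, without Bahd1-KO replicate 3, Grm5 0.13, Grm7 0.15 and Grm8 0.10 with edgeR, and 0.13, 0.14 and 0.09 with DESeq2. Without Bahd1-WT replicate 1 they were Grm5 0.14, Grm7 0.15 and Grm8 0.01. With voom quality weights they were Grm5 0.28, Grm7 0.23 and Grm8 0.15. With upper-quartile factors Grm7 was 0.02, with the GC correction Grm4 was 0.32, and with that correction without Bahd1-KO replicate 3 Grm7 was 0.12. The cause was not tested. With each embryo left out in turn, log2 fold changes ran from -1.82 to -0.48 for Grm2, -0.49 to -0.05 for Grm3, -0.97 to -0.18 for Grm4, -0.55 to 0.14 for Grm5, -0.26 to 0.15 for Grm7 and -0.40 to 0.10 for Grm8.

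Over all genes the count called, 1 in the design used, was 8 with DESeq2, 6 with voom quality weights, 0 with at least 10 counts in every embryo (452 at an unadjusted p under 0.05), 0 with ribosomal and mitochondrial genes left out (1095 unadjusted), and 0 to 4 with each embryo left out, 4 being without Bahd1-KO replicate 3. That embryo left out, DESeq2 gave 11 and the GC correction 6. With the replicate number as a block it was 0 (517 unadjusted), and 16 without Bahd1-KO replicate 3. Deviations of log2 levels from the genotype mean correlated by 0.31, 0.37 and -0.13 between same-numbered embryos (0.77 and 0.54 for the first 2 pairs without Bahd1-KO replicate 3). Between Bahd1-WT replicate 3 and Bahd1-KO replicate 2, of unlike number, they correlated by 0.41 (0.58 without Bahd1-KO replicate 3). With 2 Bahd1-KO embryos the deviations mirror each other, so the values without Bahd1-KO replicate 3 are not independent. The numbers were not taken to pair the embryos. The neighbouring pairs of members that passed 0.05 after adjustment numbered 0 per exon length and 4 per longest transcript. This count turned on how many pairs reached the smallest p that 6 embryos allow. The pairs were also formed by ranking the levels that were tested, so the count does not show which genes differ. With an embryo left out, 5 embryos cannot reach 0.05, so that count was not made. With 3 embryos per genotype, changes within the intervals given were not excluded, and depth limits only Grm6.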
